A study of Mus musculus with 88 samples.

Results

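The imprinted growth genes are 10 genes of the mouse that are expressed from the maternal or the paternal copy alone in at least some tissues and that act on growth: Igf2, H19, Dlk1, Mest, Peg3, Cdkn1c, Grb10, Plagl1, Igf2r and Ndn. They were followed in hearts of mice from a study of coronary artery disease, and each gene was read by the probe sets that the platform annotation gives to 1 of these symbols alone. Of the 10 genes, 9 had such a probe set and 9 could be tested, out of 5672 genes tested and 8252 with a probe set of their own. H19 was the exception, because its only probe set is annotated to H19 and to Mir675 together. It is therefore given no value here. The 9 genes had 16 probe sets, of which 12 passed the filter on mean signal.

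RNA of whole hearts from 88 mice was hybridised to Affymetrix arrays, with 1 mouse on each array according to the study's design text. The dKO mice carried no working copy of SR-BI and none of apolipoprotein E (SR-BI-/- apoE-/-). The HET mice kept 1 copy of SR-BI and also lacked apolipoprotein E (SR-BI+/- apoE-/-), so the loss of apolipoprotein E was common to all groups. The dKO mice with probucol, a lipid-lowering antioxidant given in the diet, contributed 6, 8 and 6 hearts at ages of 21, 31 and 43 days, while dKO mice on chow gave 10, 10 and 12. The HET mice with probucol contributed 3, 3 and 2 hearts at these ages, and HET mice on chow 9, 10 and 9. By the design text, dKO mice on chow have no detectable disease at 21 days, infarcts and heart failure at 31 days and severe failure with deaths by 43 days, so the oldest dKO hearts on chow came from survivors. HET mice on chow stay free of detectable disease, and their hearts give the course of the genes after weaning. Sex, strain background and probucol dose were not given in the sources used here. For 1 heart, dKO on chow at 21 days replicate 2, a free-text label gives 31 days while the title and the age field give 21 days, and it was kept at 21 days. Without it the Igf2 and Cdkn1c differences at 43 against 21 days in dKO hearts on chow were -0.64 and -0.60.

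Imprinted genes carry marks set in the egg or the sperm, so that 1 parental copy is silent. Several of them form a network that is high in the fetus and is turned down as organs reach their size. Igf2 encodes a growth factor that acts through the Igf1 and insulin receptors, Igf2r removes that factor from the cell surface, and Grb10 dampens signalling from those receptors. Cdkn1c encodes p57, an inhibitor of cyclin-dependent kinases that holds cells out of the cell cycle. Plagl1 encodes a zinc finger factor that acts on other imprinted genes, and Dlk1 a transmembrane protein of the Notch ligand family that restrains fat cell formation. Mest encodes an enzyme of the alpha/beta hydrolase fold, Peg3 a zinc finger protein and Ndn the growth suppressor necdin.

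Signals were analysed on the log2 scale after raising values under 4.22 to that floor. The 8 cardiomyocyte markers summed to signals of 36530.0 to 55970.0 over all groups, and none was at the floor in all hearts of a group. For Scarb1, the gene that encodes SR-BI, the difference of dKO minus HET hearts on chow was -1.58, -0.75 and -0.69 log2 units at 21, 31 and 43 days (adjusted p = 5.52e-11, 3.73e-04 and 2.47e-04). With probucol the Scarb1 difference of dKO minus HET hearts was -0.81, -1.04 and -1.26 at these ages. It did not pass at any of them (limma, adjusted p = 0.497, 0.490 and 0.117). Arrays were not equal in brightness, with a median signal of 27.8 to 75.4, and brightness moved with the groups. The median of all tested genes was higher by 0.27 log2 units at 43 than at 21 days in HET hearts on chow and by 0.67 in dKO hearts on chow, and it was 0.26 higher in dKO than in HET hearts at 43 days. For this reason differences are given as deposited and, for the main results, after median centring, in which every array is shifted to the same median. A change called in all 4 scalings passed an adjusted p of 0.05 in the same direction with deposited signals, with median centring, with quantile normalization and with median centring plus a block for array set. The array set splits the arrays into 68 and 20 by a pattern left after the group means, and the 20 included 6 of the 10 dKO hearts on chow at 21 days and 6 of the 10 HET hearts on chow at 31 days. Because whole hearts were used, fewer cells of a type and less RNA per cell cannot be told apart.

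Of the 16 member probe sets, 11 stood above the floor on every array and 5 did not. The second Igf2 probe set (98622_at) was at the floor on 33 of 88 arrays, and no array exceeded a signal of 34.7. A Grb10 probe set (95450_at) was at the floor on 32 arrays, a Plagl1 probe set (92501_s_at) on 6 and a Peg3 probe set (101451_at) on 2. These 4 probe sets had mean signals under the filter of 30.2 and were not used for tests of their gene. The Grb10 probe set that stood for its gene (93691_s_at) was at the floor on 1 array. Igf2 values below are those of 98623_g_at alone, which no array had at the floor.

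**Figure D1:**
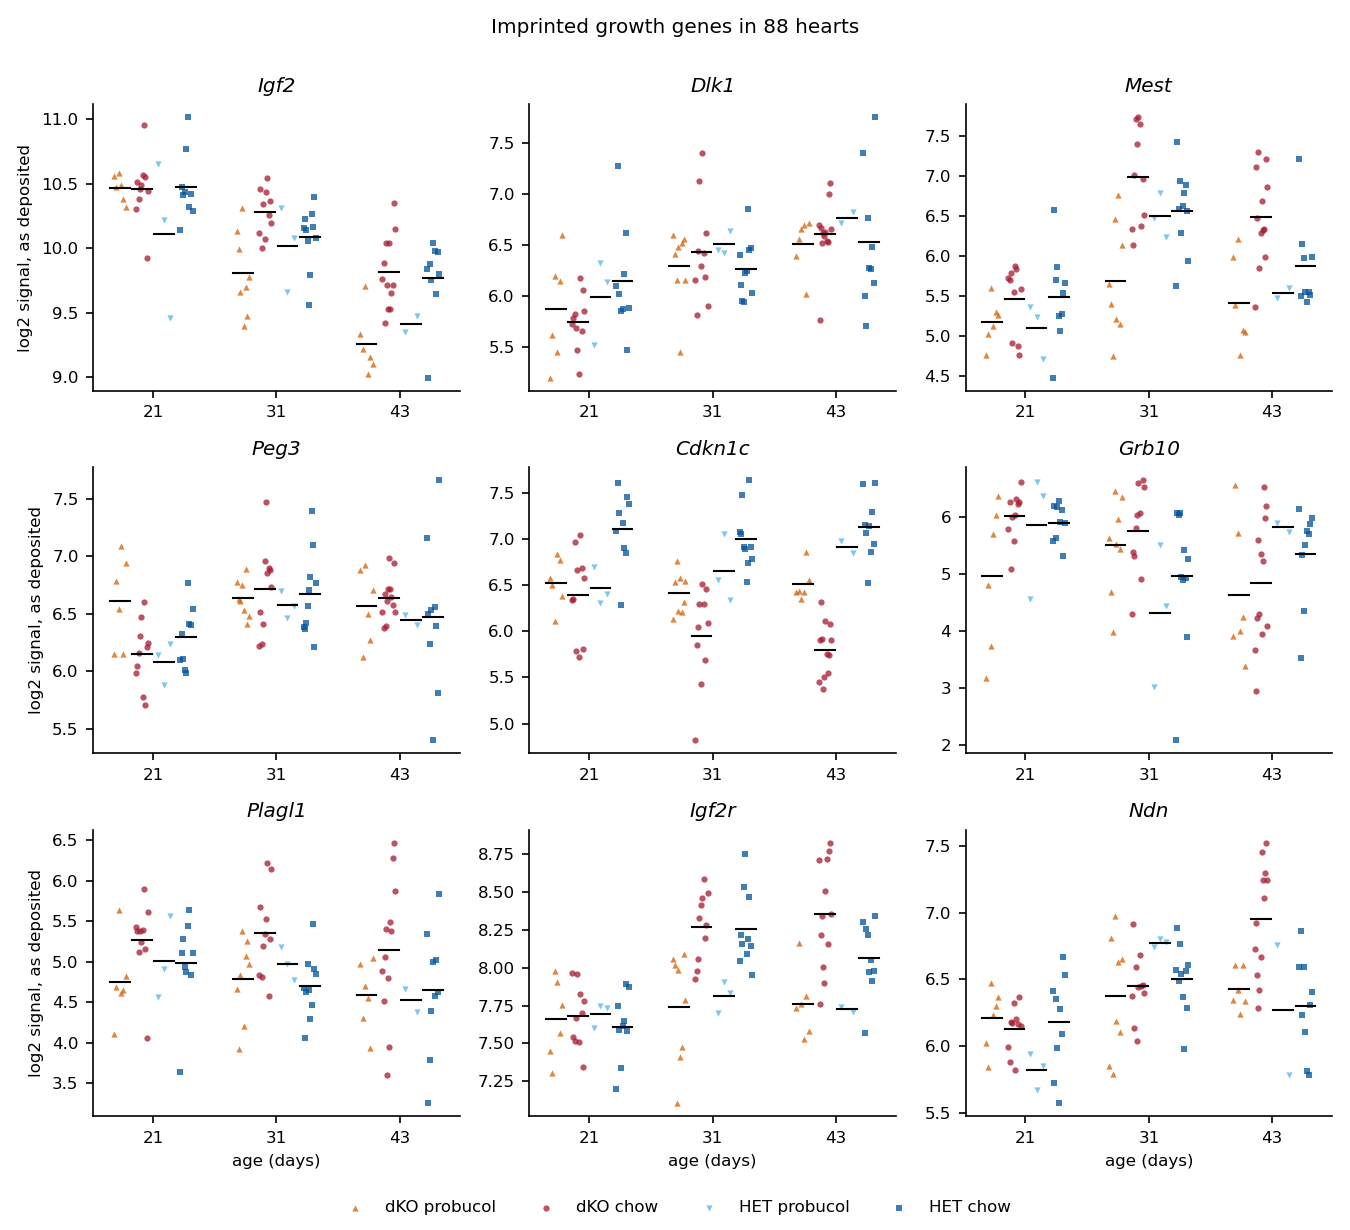
Each point is 1 heart, plotted by age in days against log2 signal as deposited for the 9 tested genes, with dKO probucol, dKO chow, HET probucol and HET chow hearts side by side and a line at each group mean. Igf2 means are lower at 43 than at 21 days in each of the 4 arms, Mest means on chow are highest at 31 days, and Cdkn1c is lower in dKO than in HET hearts on chow.

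In HET hearts on chow, Igf2 was the tested member that declined after weaning, with 1 probe set standing for each gene. At 31 against 21 days, 1 of the 9 tested members was lower, namely Igf2, and 2 were higher, Mest and Igf2r. Over all tested genes 0.917% were lower and 15.8% higher in that comparison. At 43 against 21 days 1 of 9 was lower, again Igf2, and 1 was higher, Igf2r, beside 0.494% of all tested genes lower and 19.2% higher. The median difference of the members at 43 days was 0.12 log2 units, against 0.27 over all tested genes. After median centring Igf2 alone passed of the 9 members at 43 against 21 days, and it was lower. Of the 5672 tested genes 93 were then called lower and 54 higher. Outside these tests, a second Peg3 probe set was also lower after centring in this comparison. The probe set shared by H19 and Mir675 was lower as well, and both are given below.

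Igf2 signals in HET hearts on chow spanned 10.14 to 11.01 log2 units at 21 days (median 10.42), 9.56 to 10.40 at 31 days (median 10.15) and 9.00 to 10.04 at 43 days (median 9.84). Every heart at 43 days was lower than every heart at 21 days, while hearts at 31 days overlapped both. The means were 10.48 ± 0.26, 10.08 ± 0.24 and 9.77 ± 0.31 at the successive ages (SD, n = 9, 10 and 9). The difference was -0.39 ± 0.12 at 31 against 21 days (SE, adjusted p = 0.0196) and -0.71 ± 0.13 at 43 against 21 days (SE, adjusted p = 5.84e-05), a level 1.63-fold lower at 43 days. Among the 28 genes called lower in the second comparison, Igf2 ranked at place 3 by p. Both falls were called in all 4 scalings, and after centring they measured -0.51 and -0.99. From 31 to 43 days the difference of -0.32 ± 0.12 did not pass (SE, adjusted p = 0.353).

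The fall of Igf2 was also measured in dKO hearts, on either diet. With probucol, Igf2 in dKO hearts spanned 10.32 to 10.58 at 21 days (median 10.48), 9.40 to 10.31 at 31 days (median 9.74) and 9.02 to 9.71 at 43 days (median 9.19). The hearts at 31 days and those at 43 days all lay under the hearts at 21 days. At 31 against 21 days the difference was -0.66 ± 0.14 (SE, adjusted p = 0.0226), and Igf2 was the single gene called lower of all genes tested, which makes 1 of 9 members beside 0.0176% of all genes. No member was called higher there, where 0.247% of all genes were (limma, 14 genes at the adjusted and 858 at the unadjusted threshold of 0.05). At 43 against 21 days the difference was -1.21 ± 0.15 (SE, adjusted p = 3.63e-08), a level 2.31-fold lower. Igf2 was again the 1 member of 9 called lower beside 0.529% of all genes, and its p was the second smallest of those 30 genes. The share of all genes called higher was 7.02%, with none of the members among them (limma, 398 genes at the adjusted and 1400 at the unadjusted threshold).

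On chow, Igf2 in dKO hearts spanned 9.92 to 10.95 at 21 days (median 10.48), 10.004 to 10.55 at 31 days (median 10.30) and 9.42 to 10.35 at 43 days (median 9.74). The 3 ages overlapped, and the 43 day hearts reached lowest. As deposited, the difference from 21 days was -0.18 ± 0.12 at 31 days (SE, adjusted p = 0.177) and -0.64 ± 0.11 at 43 days (SE, adjusted p = 9.07e-07). After centring these values were -0.83 and -1.49, with adjusted p of 1.14e-05 and 5.62e-15. In HET hearts with probucol the signals were 10.66, 10.22 and 9.46 at 21 days, 10.31, 9.66 and 10.08 at 31 days and 9.35 and 9.48 at 43 days. One of the 43 day hearts lay above the lowest 21 day heart, and the difference of -0.70 ± 0.24 at 43 against 21 days did not pass (SE, adjusted p = 0.151).

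The size of the Igf2 fall was not shown to differ between the arms. Signed changes from 21 to 43 days were compared, so a negative value means a larger fall in the arm named first. On chow, the change in dKO minus that in HET hearts was 0.06 ± 0.17 as deposited (SE, adjusted p = 0.787) and -0.50 ± 0.22 after centring (SE, adjusted p = 0.0648). The change in dKO hearts with probucol minus that in HET hearts on chow was -0.50 ± 0.20 as deposited (SE, adjusted p = 0.779). These 2 arms share no mouse. Igf2 did not pass between dKO and HET hearts on chow at any age, with differences of -0.02 ± 0.12, 0.20 ± 0.12 and 0.05 ± 0.12 at 21, 31 and 43 days (SE, adjusted p = 0.964, 0.236 and 0.765).

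Cell type markers were summed on the linear scale beside the Igf2 course in HET hearts on chow. The 3 erythroid markers had a median sum of 7079, 6256 and 4095 at 21, 31 and 43 days, with a range of 4922 to 8963 at 21 days and 3653 to 4677 at 43 days. In dKO hearts with probucol the medians were 7036, 6416 and 3699. The medians in dKO hearts on chow were 10050.0, 11710.0 and 13630.0. All these sums are of deposited signals without centring, and array brightness moved as well. From 21 to 43 days the mean log2 array median rose from 5.02 to 5.87 in dKO hearts on chow and from 5.23 to 5.52 in HET hearts on chow. The 12 fibroblast and stroma markers had medians of 9526, 10350.0 and 8945 in HET hearts on chow, with overlapping ranges. Gene by gene, 2 of the 12 were called lower and 1 higher there at 43 against 21 days, beside 0.494% and 19.2% of all genes. After centring 4 were lower and 0 higher, beside 93 and 54 of the 5672 genes. As deposited, 4 were lower and 0 higher in dKO hearts with probucol, beside 0.529% and 7.02%. In dKO hearts on chow 0 were lower and 11 higher, beside 4.97% and 73.1%. None of these markers was at the floor in all hearts of a group, and their part in the Igf2 result was not tested.

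Igf2 has 4 annotated starts in RefSeq (GRCm38.p6), and which of their transcripts the probe set reads was not examined. The 100 bases before each start and the first 10 bases of the transcript are shown, because the falling signal cannot be assigned to a start. Capitals mark CG pairs, the sites where cytosine can be methylated.
Igf2 start 1, chr7:142666807-142666916, minus strand: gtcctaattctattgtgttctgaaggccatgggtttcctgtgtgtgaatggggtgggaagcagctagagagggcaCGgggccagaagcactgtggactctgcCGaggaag
Igf2 start 2, chr7:142661262-142661371, minus strand: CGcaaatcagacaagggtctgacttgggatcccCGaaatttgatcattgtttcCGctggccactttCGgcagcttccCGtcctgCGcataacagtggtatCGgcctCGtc
Igf2 start 3, chr7:142658795-142658904, minus strand: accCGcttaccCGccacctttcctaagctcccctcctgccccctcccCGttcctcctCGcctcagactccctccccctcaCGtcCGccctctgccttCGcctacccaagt
Igf2 start 4, chr7:142657487-142657596, minus strand: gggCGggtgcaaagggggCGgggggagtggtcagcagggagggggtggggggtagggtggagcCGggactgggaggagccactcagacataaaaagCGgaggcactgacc
In the full windows of 250 bases before to 50 bases after the start, these held 2, 14, 24 and 7 CG pairs, against a median of 7 over 32851 annotated windows of the same length. The pair count at starts 2 and 3 exceeded that of 63.7% and 80.0% of all windows.

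**Figure D2:**
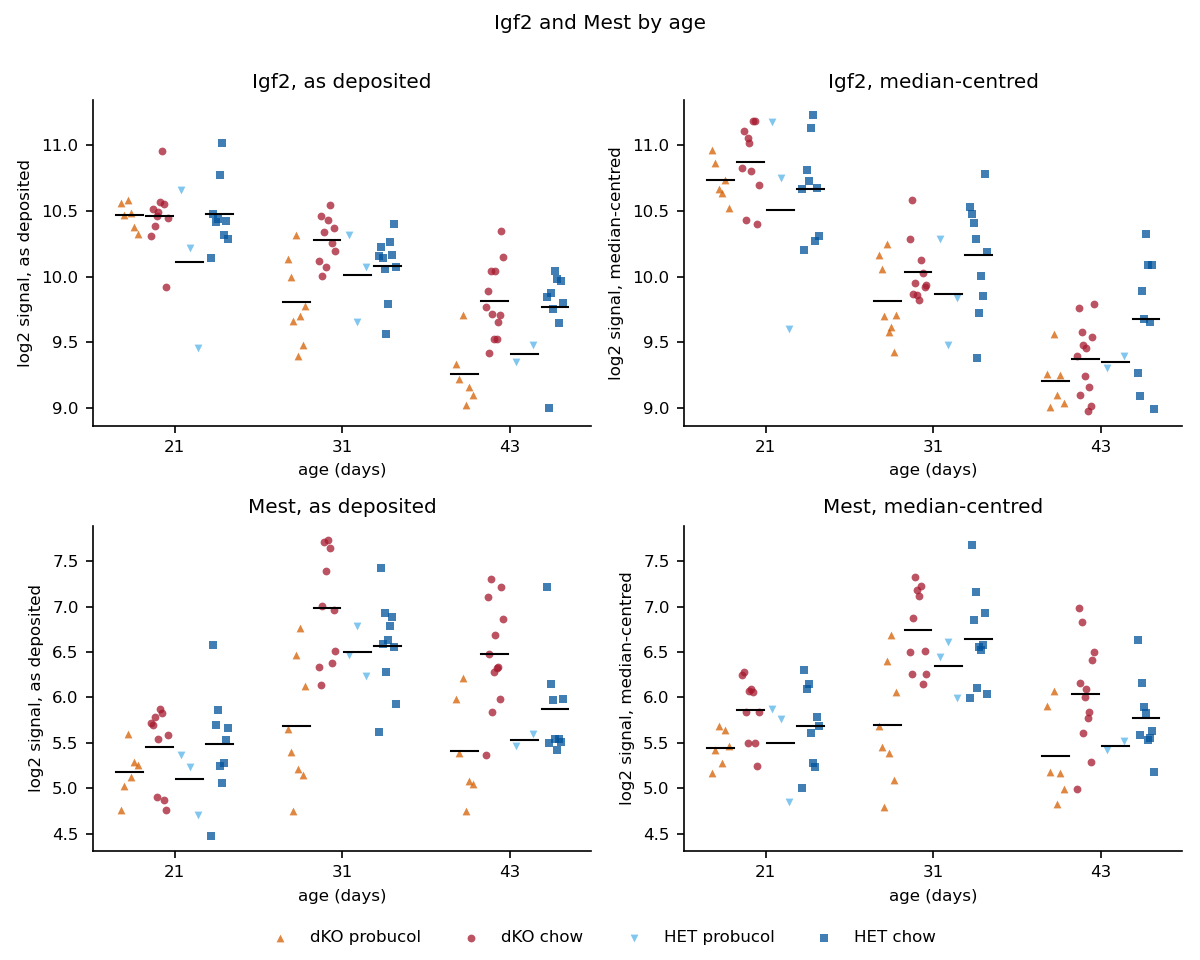
Igf2 (top) and Mest (bottom) in each heart by age in days, on the log2 scale as deposited (left) and after centring each array on its median (right), with a line at each group mean. Under both scalings Igf2 means are lowest at 43 days in every arm, and Mest means on chow are highest at 31 days.

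Mest rose between 21 and 31 days in HET hearts on chow. Its signals there spanned 4.47 to 6.58 at 21 days (median 5.54), 5.62 to 7.43 at 31 days (median 6.61) and 5.42 to 7.21 at 43 days (median 5.54). The medians at 21 and 43 days were alike, and that at 31 days stood above them, while the ranges of all 3 ages overlapped. At 31 against 21 days the difference was 1.08 ± 0.25 (SE, adjusted p = 0.00128), a 2.11-fold higher level, and it was called in all 4 scalings. Without the 20 arrays of the smaller array set and with centring it was 0.79 and did not pass (adjusted p = 0.187). At 43 against 31 days the difference was -0.69 ± 0.25 (SE, adjusted p = 0.289) as deposited and -0.86 ± 0.22 after centring (SE, adjusted p = 0.0241). One heart at 43 days, replicate 1, had the value of 7.21, while the others ended at 6.15.

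Mest in dKO hearts on chow spanned 4.76 to 5.87 at 21 days (median 5.64), 6.14 to 7.73 at 31 days (median 6.98) and 5.36 to 7.30 at 43 days (median 6.404). As deposited, every heart at 31 days lay above every heart at 21 days. After centring these ages overlapped, with the lowest 31 day heart at 6.144 and the highest 21 day heart at 6.283. The rise to 31 days was 1.53 ± 0.24 (SE, adjusted p = 2.49e-07), 2.88-fold, in all 4 scalings, and 0.78 with centring and without the smaller array set (adjusted p = 0.0661). Of the 9 members, 4 were called higher at 31 against 21 days in dKO hearts on chow (Dlk1, Mest, Peg3 and Igf2r) and 1 lower (Cdkn1c), beside 62.7% and 1.04% of all tested genes. Mest and Cdkn1c kept their calls in all 4 scalings.

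Mest was lower with probucol in dKO hearts at 31 and 43 days. At 21 days the means were 5.18 ± 0.28 with probucol and 5.46 ± 0.43 on chow (SD, n = 6 and 10). Mest was not called there, as deposited or after centring. At 31 days Mest spanned 4.75 to 6.76 in dKO hearts with probucol (median 5.52), against 6.14 to 7.73 on chow (median 6.98). At 43 days it spanned 4.75 to 6.21 with probucol (median 5.23), against 5.36 to 7.30 on chow (median 6.404). Medians were lower with probucol at both later ages, and the ranges overlapped. The differences were -1.29 ± 0.25 at 31 days (SE, adjusted p = 3.92e-05) and -1.07 ± 0.27 at 43 days (SE, adjusted p = 5.59e-04), called in all 4 scalings, and -1.05 and -0.69 after centring.

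Members whose deposited group means spanned at least 1 log2 unit were compared with all other tested genes. By the likeness of median-centred means over the 12 groups, the tested genes nearest to Mest were Ccnb2, which encodes cyclin B2 (r = 0.954), the histone gene H2ax (r = 0.922) and Prc1, a gene of the dividing cell's midzone (r = 0.920). The nearest to Igf2 were Hdac7, Cxxc1 and Kcne1 (r = 0.957, 0.956 and 0.951). For Cdkn1c they were the water channel gene Aqp1, Rp9 and Kdelr1 (r = 0.964, 0.951 and 0.947), and for Dlk1 Itln1, Resp18 and Dpysl2 (r = 0.938, 0.912 and 0.911). Grb10 was nearest to Ypel3, Zfpm1 and Otud7b (r = 0.913, 0.861 and 0.859), and Ndn to Rnf138, Agfg1 and Creld2 (r = 0.877, 0.873 and 0.804). These values rank genes over 12 means and are given without a test. The centred means of Dlk1 and Ndn spanned only 0.57 and 0.42 log2 units. The starts of Mest in RefSeq (GRCm38.p6) fall in 2 places, since start 3 lies 3 bases from start 2. They are shown in the same way as those of Igf2, because Mest, with Igf2r, was higher when Igf2 was already lower.
Mest start 1, chr6:30733406-30733515, plus strand: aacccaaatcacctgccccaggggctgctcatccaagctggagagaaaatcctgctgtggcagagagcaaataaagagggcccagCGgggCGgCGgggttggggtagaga
Mest start 2, chr6:30737950-30738059, plus strand: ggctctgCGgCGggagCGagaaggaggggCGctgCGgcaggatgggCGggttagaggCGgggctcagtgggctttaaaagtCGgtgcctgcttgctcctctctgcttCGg
The full windows held 8 and 17 CG pairs. Of the 14 windows of 8 members, 1 held the PLAGL1 core GGGGCCCC, at Peg3, against 1.08% of all windows. The CTCF core GGNGGCAG, searched on both strands, was in 2 windows, at Igf2 start 3 and Grb10 start 1, against 12.6% of all windows.

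Igf2r rose between 21 and 31 days in HET hearts on chow. The signals spanned 7.20 to 7.89 at 21 days (median 7.61), 7.95 to 8.75 at 31 days (median 8.17) and 7.57 to 8.34 at 43 days (median 8.05). As deposited, all hearts at 31 days lay above all hearts at 21 days, and those at 43 days overlapped both. After centring the 31 and 21 day hearts overlapped as well, with the lowest 31 day heart at 7.925 and the highest 21 day heart at 7.986. The difference at 31 against 21 days was 0.65 ± 0.12 (SE, adjusted p = 1.42e-04), 1.56-fold, and was called in all 4 scalings. With centring and without the smaller array set it was 0.38 and did not pass (adjusted p = 0.155). At 43 against 21 days it was 0.46 ± 0.13 as deposited (SE, adjusted p = 0.00771) and 0.17 after centring (adjusted p = 0.464).

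Cdkn1c was the single member that differed between genotypes in all 4 scalings. Of the 9 members, 1 was called lower in dKO than in HET hearts on chow at 21 days, beside 1.39% of all tested genes, 1 at 31 days beside 3.91%, and 1 at 43 days beside 11.6%, and each time it was Cdkn1c. After median centring 0, 2 and 1 members were lower at these ages, beside 51, 1304 and 1587 of the 5672 tested genes. Cdkn1c was among them at 31 and 43 days. As deposited, members called higher in dKO hearts numbered 0 at 21 days beside 0.688% of all genes (limma, 39 genes at the adjusted and 173 at the unadjusted threshold), and 0 at 31 days beside 20.4% (limma, 1157 and 1663 genes). At 43 days they were 3, Mest, Igf2r and Ndn, beside 37.3%. None of those 3 was called after median centring, where Igf2r turned to -0.06.

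At 21 days Cdkn1c spanned 5.72 to 7.04 in dKO hearts on chow (median 6.46), against 6.28 to 7.61 in HET hearts on chow (median 7.18). At 31 days it spanned 4.82 to 6.51 in dKO hearts (median 6.07), against 6.53 to 7.64 in HET hearts (median 6.91). At 43 days it spanned 5.38 to 6.32 in dKO hearts (median 5.83), against 6.53 to 7.61 in HET hearts (median 7.13). The genotypes overlapped at 21 days, and at 31 and 43 days every dKO heart lay under every HET heart.

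The differences of Cdkn1c, dKO minus HET on chow, were -0.72 ± 0.17 at 21 days (SE, adjusted p = 0.00791), -1.05 ± 0.16 at 31 days (SE, adjusted p = 3.64e-07) and -1.33 ± 0.16 at 43 days (SE, adjusted p = 2.66e-11). In linear terms the dKO level was 1.64-fold, 2.08-fold and 2.51-fold lower. Those at 31 and 43 days were called in all 4 scalings, and after centring they were -1.37 and -1.68. The difference at 21 days was not stable. It did not pass after centring (-0.50, adjusted p = 0.0576), with the array set block (-0.54, adjusted p = 0.0627) or in a fit on the compared groups alone (adjusted p = 0.0778). Without the smaller array set it was -0.44 (adjusted p = 0.954), and -0.48 with centring as well (adjusted p = 0.558). Among the 222 genes called lower in dKO hearts at 31 days, Cdkn1c had the sixth smallest p, and at 43 days it ranked at place 87 of 658.

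The genotype difference widened with age. Its change from 21 to 43 days was -0.61 ± 0.23 (SE, adjusted p = 0.0292) as deposited and -1.18 ± 0.23 after centring (SE, adjusted p = 2.01e-05). It was called in all 4 scalings, and it was -0.54 and did not pass when the Gapdh 3'/5' ratio, a measure of RNA integrity, was added to the fit (adjusted p = 0.0535). Over all tested genes, 6.12% had such a change toward lower and 33.3% toward higher values, and 1 of 9 members went each way, Cdkn1c and Ndn. Cdkn1c in HET hearts on chow showed no such course, with means of 7.11 ± 0.40, 7.002 ± 0.33 and 7.13 ± 0.34 at 21, 31 and 43 days (SD, n = 9, 10 and 9). It fell in dKO hearts on chow, by 0.45 at 31 against 21 days (adjusted p = 0.0147) and 0.59 at 43 against 21 days (adjusted p = 5.20e-04). After centring these differences were -1.10 and -1.45. The call at 31 days was lost in a fit on the compared groups alone (adjusted p = 0.0676).

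**Figure D3:**
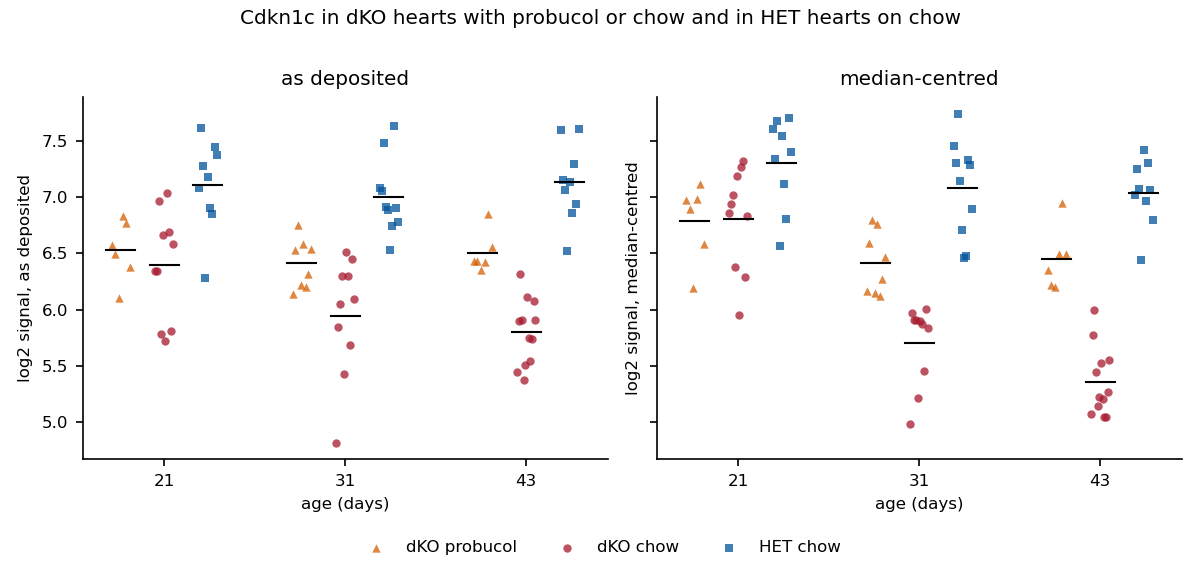
Cdkn1c in each dKO heart with probucol, dKO heart on chow and HET heart on chow, by age in days on the log2 scale, as deposited (left) and after median centring (right), with a line at each group mean. The dKO and HET hearts on chow do not overlap at 31 and 43 days, and the 43 day dKO hearts with probucol, from 6.35 to 6.85 as deposited, lie above those on chow.

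With probucol, dKO hearts held more Cdkn1c signal than on chow at both later ages. At 31 days it spanned 6.14 to 6.76 with probucol (median 6.43), against 4.82 to 6.51 on chow (median 6.07). At 43 days it spanned 6.35 to 6.85 with probucol (median 6.43), against 5.38 to 6.32 on chow (median 5.83). The diets overlapped at 31 days and did not at 43 days. The differences were 0.46 ± 0.17 (SE, adjusted p = 0.0342) and 0.71 ± 0.18 (SE, adjusted p = 8.61e-04), 1.38-fold and 1.63-fold, and both were called in all 4 scalings. The call at 31 days was lost in a fit on the compared groups alone (adjusted p = 0.0855), with array weights (0.37, adjusted p = 0.0554) and without the smaller array set (0.45, adjusted p = 0.0616). At 21 days the difference was 0.13 ± 0.19 (SE, adjusted p = 0.929). Between dKO and HET hearts with probucol at 43 days it was -0.40 ± 0.30 and did not pass (SE, adjusted p = 0.9996).

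Of the 9 members, 1 was called higher with probucol in dKO hearts at 31 days, Cdkn1c, beside 2.13% of all genes, and 3 lower, Igf2, Mest and Igf2r, beside 27.1%. At 43 days 1 was higher, Cdkn1c, beside 8.2% of all genes, and 4 were lower, Igf2, Mest, Igf2r and Ndn, beside 37.7%. Of these lower calls Mest alone stood in all 4 scalings at each age. Igf2 in dKO hearts was lower with probucol by 0.56 ± 0.13 at 43 days as deposited (SE, adjusted p = 3.19e-04), and by 0.17 after centring (adjusted p = 0.455).

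Marker sums, again of deposited signals without centring, differed between the same groups at 43 days. The 8 macrophage markers had a median sum of 1537 in dKO hearts with probucol and 11320.0 in dKO hearts on chow, against 1215 in HET hearts on chow. Their range was 7626 to 14630.0 in dKO hearts on chow and 883 to 2274 in HET hearts on chow, without overlap. The 12 fibroblast and stroma markers had a median of 7960.0 in dKO hearts with probucol and 22510.0 in dKO hearts on chow, against 8945 in HET hearts on chow. The sum of the 8 cardiomyocyte markers ran the other way. Its median was 51570.0 in dKO hearts with probucol and 38970.0 in dKO hearts on chow, against 46570.0 in HET hearts on chow. Gene by gene, dKO against HET on chow, 5 of the 8 were lower and 1 higher, beside 11.6% and 37.3% of all genes. With probucol against chow in dKO hearts, 7 were higher and 1 lower, beside 8.2% and 37.7%. The 8 endothelial markers had medians of 2456, 3529 and 2605 in these groups in the same order. No marker of these 4 lists was at the floor in all hearts of a group, and their part in the Cdkn1c result was not tested.

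**Figure D4:**
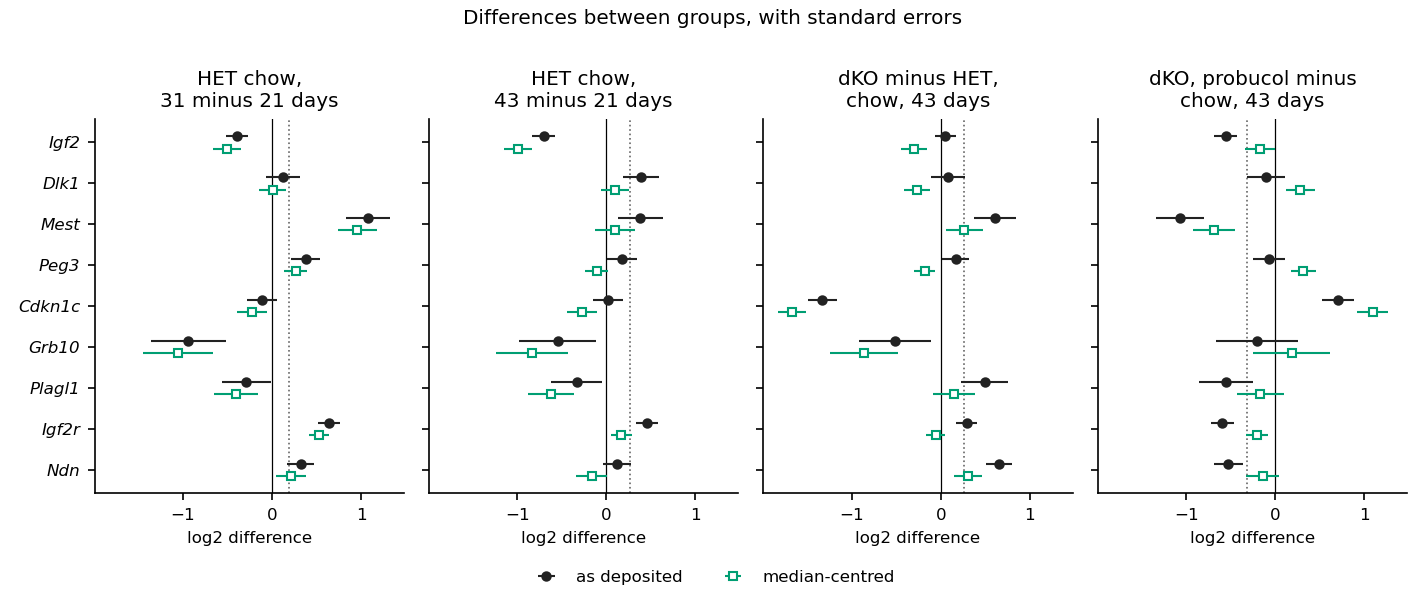
Log2 differences of the 9 tested members in 4 comparisons, with bars of 1 standard error, as deposited (filled circles) and after median centring (open squares), and a dotted line at the median of all tested genes as deposited. Igf2 lies to the left in HET hearts at 43 against 21 days, at -0.71 and -0.99, and Cdkn1c lies to the left in dKO against HET hearts and to the right with probucol.

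Grb10 was read by 2 probe sets above the filter, and they differed. The one that stood for the gene spanned 2.94 to 6.52 in dKO hearts on chow at 43 days (median 4.76), against 5.08 to 6.62 at 21 days (median 6.13). The 43 day hearts were spread widely and reached lower, with overlap. It fell by 1.18 at 43 against 21 days (SE 0.39, adjusted p = 0.00525), in all 4 scalings. The value was -2.03 after centring and -0.60 for the mean of the gene's probe sets. The other probe set, 93690_at, differed by -0.02 as deposited (adjusted p = 0.948) and by -0.87 after centring (adjusted p = 1.03e-04). In HET hearts on chow the first probe set had a difference of -0.55 ± 0.43 at 43 against 21 days, which did not pass (SE, adjusted p = 0.361). In dKO hearts on chow at 43 against 21 days 3 of 9 members were lower, Igf2, Cdkn1c and Grb10, all in 4 scalings, beside 4.97% of all genes. The 5 called higher, Dlk1, Mest, Peg3, Igf2r and Ndn, stood beside 73.1% of all genes, and none of them was called higher after centring. Peg3 turned to -0.36 there and was called lower (adjusted p = 0.0072). After centring 5 members were lower, Igf2, Cdkn1c, Grb10, Peg3 and Plagl1, beside 2016 of the 5672 tested genes.

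Ndn was higher in dKO than in HET hearts on chow at 43 days as deposited. It spanned 6.28 to 7.52 in dKO hearts (median 7.02), against 5.78 to 6.86 in HET hearts (median 6.31). The upper dKO hearts exceeded all HET hearts, and the rest overlapped. The difference was 0.65 ± 0.15 (SE, adjusted p = 1.03e-04) as deposited and 0.30 ± 0.16 after centring, where it did not pass (SE, adjusted p = 0.115). The other Ndn probe set, 94811_s_at, gave 0.61 ± 0.26 over all probe sets with 1 symbol and did not pass (SE, adjusted p = 0.0572). From 31 to 43 days in dKO hearts on chow Ndn was the 1 member called higher, beside 18.2% of all genes, and Igf2 the 1 called lower, beside 5.45%. The Ndn call was lost in the other 3 scalings, and the Igf2 call stood in all 4. In HET hearts with probucol Ndn was 0.96 ± 0.27 higher at 31 than at 21 days as deposited (SE, adjusted p = 0.0424), and 0.41 higher after centring (adjusted p = 0.548).

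Dlk1, Peg3 and Plagl1 had no call that stood in all 4 scalings. Dlk1 in HET hearts on chow averaged 6.14 ± 0.53, 6.27 ± 0.29 and 6.53 ± 0.67 at 21, 31 and 43 days (SD, n = 9, 10 and 9). Its difference at 43 against 21 days was 0.39 ± 0.20 and did not pass (SE, adjusted p = 0.156). Plagl1 in the same hearts averaged 4.98 ± 0.57, 4.70 ± 0.39 and 4.65 ± 0.78, with a difference of -0.34 ± 0.28 that did not pass (SE, adjusted p = 0.401). In dKO hearts on chow the median-centred means of Plagl1 were 5.68, 5.12 and 4.70 at 21, 31 and 43 days.

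The Peg3 probe sets disagreed. The probe set that stood for the gene averaged 6.29 ± 0.26, 6.67 ± 0.37 and 6.47 ± 0.67 in HET hearts on chow at 21, 31 and 43 days (SD, n = 9, 10 and 9), with a difference of 0.18 ± 0.17 at 43 against 21 days. The second, 96765_at, averaged 6.4005 ± 0.38, 6.61 ± 0.35 and 5.81 ± 0.64. Its difference at 43 against 21 days was -0.59 ± 0.21 as deposited, over all probe sets with 1 symbol (SE, adjusted p = 0.0571), and -0.88 after centring (adjusted p = 0.00656). In HET hearts with probucol at 43 days its 2 values averaged 4.02, under every HET heart on chow at 21 and 31 days. In dKO hearts with probucol it averaged 6.57 ± 0.27, 6.03 ± 0.44 and 5.76 ± 0.38 at 21, 31 and 43 days (SD, n = 6, 8 and 6), and the difference at 43 against 21 days was -0.81 as deposited (adjusted p = 0.0564) and -1.13 after centring (adjusted p = 0.00385).

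The probucol groups of HET hearts were small, and the members' differences there had wide errors. Between HET hearts with probucol and on chow, the 9 differences ran from -0.65 for Cdkn1c to 0.08 for Igf2r at 21 days, from -0.64 for Grb10 to 0.28 for Plagl1 at 31 days and from -0.36 for Igf2 to 0.47 for Grb10 at 43 days. The smallest adjusted p at these ages were 0.337, 0.234 and 0.661 as deposited. After centring Igf2r was lower with probucol at 31 days, at -0.67 ± 0.16 (SE, adjusted p = 0.00746), beside 306 of the 5672 tested genes. No other member passed at these ages. Between dKO and HET hearts with probucol, the smallest were 0.999, 0.952 and 0.9996.

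Related genes were counted beside the members. Of 20 tested genes in a list of other imprinted genes, 4 rose and 0 fell at 43 against 21 days in HET hearts on chow (limma, all genes adjusted), a share near the 19.2% of all genes called higher. Their median was 0.19 log2 units, against 0.27 over all genes. After centring 0 were higher and 2 lower, beside 54 and 93 of the 5672 tested genes. The rises with the smallest p were Gnas, which encodes the stimulatory G protein subunit (0.38 ± 0.09, adjusted p = 0.00109), Kcnq1, a potassium channel gene (0.63 ± 0.19, adjusted p = 0.0126), and Gatm, an enzyme of creatine synthesis (0.71 ± 0.21, adjusted p = 0.0128). Errors here and for the genes of the next lists are SE. None of these 3 passed after centring. At 43 days Gatm was 0.80 ± 0.20 higher in dKO than in HET hearts (SE, adjusted p = 4.49e-04), Gnas differed by -0.09 (adjusted p = 0.398) and Kcnq1 by -0.07 (adjusted p = 0.781).

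Of 19 tested genes of the insulin-like growth factor axis, 5 rose and 0 fell at 43 against 21 days in HET hearts on chow, beside 19.2% of all genes higher and 0.494% lower. The median was 0.25, under the 0.27 of all genes, and 0 passed after centring (limma). The smallest p belonged to Grb2, an adaptor of receptor tyrosine kinases (0.73 ± 0.18, adjusted p = 0.00254), Htra1, a secreted protease that cuts binding proteins of the growth factors (0.50 ± 0.14, adjusted p = 0.00622), and Eif4ebp1, a repressor of translation (0.36 ± 0.12, adjusted p = 0.0247). Between genotypes at 43 days, dKO minus HET, Htra1 differed by -0.50 ± 0.13 (SE, adjusted p = 6.77e-04). Grb2 differed by 0.32 (adjusted p = 0.109) and Eif4ebp1 by 0.10 (adjusted p = 0.503), and neither passed. In that comparison 6 of the 19 were higher and 5 lower, beside 37.3% and 11.6% of all genes. After centring 4 were higher and 7 lower, beside 1112 and 1587 of the 5672 tested genes.

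Of 25 tested cell division genes, 5 rose and 0 fell at 31 against 21 days in HET hearts on chow, near the 15.8% of all genes called higher. After centring 3 rose, beside 387 of the 5672 tested genes. By 43 days 2 of the 25 were higher than at 21 days and 0 lower, beside 19.2% and 0.494% of all genes. The 2 were Ccnd1, which encodes cyclin D1 (1.08 ± 0.20, adjusted p = 1.25e-04), and its partner kinase Cdk4 (0.34 ± 0.10, adjusted p = 0.0110). Ccnd1 alone passed after centring, at 0.80. Between dKO and HET hearts at 43 days 18 of the 25 were higher and 0 lower, beside 37.3% and 11.6% of all genes. The median was 0.87 against 0.26 over all genes. After centring 14 were higher and 2 lower, beside 1112 and 1587 of the 5672 tested genes. Of 10 tested genes that a list gives as other postnatal growth genes, 1 rose at 43 against 21 days in HET hearts on chow, beside 19.2% of all genes, the receptor gene Nrp1 (0.44 ± 0.12, adjusted p = 0.00909), and 0 passed after centring.

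The members were also compared with each other within groups, as residuals of the median-centred signal after removing group means over 88 arrays. Of 36 pairs, 3 passed a permutation test after adjustment over the pairs. Igf2 and Igf2r had r = 0.396 and rho = 0.409 (permutation p = 4.9e-04 and 3.3e-04, adjusted p = 0.0176 and 0.0119). Igf2 and Ndn had r = 0.333 and rho = 0.368 (permutation p = 0.0035 and 0.0013, adjusted p = 0.0426 and 0.0243). Igf2r and Ndn had r = 0.362 and rho = 0.338 (permutation p = 0.0013 and 0.0030, adjusted p = 0.0236 and 0.0366). Without the 2 arrays farthest from the median of the first gene, r was 0.436, 0.321 and 0.316. Within the larger array set it was 0.274, 0.258 and 0.194, and within the smaller set 0.618, 0.462 and 0.672. On quantile-normalized signals 0 of the 36 pairs passed, so these relations rest on the scaling. Arrays share brightness and array set, and correlations between genes on the same arrays hold both.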

How the data were processed

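Values were the deposited probe set signals of 88 Affymetrix arrays, in intensity units on a linear scale, computed with MAS 5.0 per the submitters' processing notes. No source used here gives any scaling of the arrays after that step. Values below 4.22, which is where the lowest 10% of the authors' signals end, were set to 4.22 before log2. Probe sets with 1 gene symbol in the platform annotation were kept where their mean signal was at least 30.2, the upper 60% of probe sets, with the brightest one representing each gene. This gave 5672 tested genes.

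Differences came from 1 limma fit (version 3.58.1 in R 4.3.3) over all 12 groups with an intensity trend, and p-values were adjusted over all tested genes by the Benjamini-Hochberg method at a threshold of 0.05. Precision is limited by the number of arrays, which was 2 to 12 per group. The fit was tested on simulated data. Same-numbered arrays had a mean residual correlation of 0.00812 (-0.303 to 0.372), so replicate numbers were not used as pairs. Alternatives were quantile normalization, median centring, other floors and filters, fits on the compared groups alone, averaging over probe sets of a gene, array weights, a replicate block, the array set as a block, the Gapdh 3' to 5' ratio and left-out arrays. Genes other than members were named as the 3 with the smallest p among those called in each list in HET hearts on chow at 43 against 21 days, and neighbours as the 3 most alike for members whose group means as deposited spanned at least 1 log2 unit, with likeness taken on median-centred means. The members and lists were chosen with earlier results of these data known.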

Additional observations from a re-analysis of the deposited data

Results flagged for a closer look

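In 72 combinations of a gene and a group of 4 to 10 hearts, 5 held a heart farther from the others than Dixon's 95% critical value, where chance gives about 1 in 20. In HET hearts on chow at 43 days, Igf2 was 8.999 in replicate 2, the nearest heart being at 9.649, and Mest was 7.212 in replicate 1, the nearest being at 6.147. Dlk1 was 5.447 in dKO hearts with probucol at 31 days, replicate 5, the nearest being at 6.156. Plagl1 was 4.062 in dKO hearts on chow at 21 days, replicate 9, and 3.641 in HET hearts on chow at 21 days, replicate 1.

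For 2 members the change from 21 to 43 days differed between dKO and HET hearts on chow by the interaction term. It was -0.6131 log2 units for Cdkn1c and 0.7057 for Ndn, and after median centring the Ndn value was 0.14 and did not pass (adjusted p = 0.688). The probe set annotated to Mir675 and H19 together, which no member comparison used, was 1.428 higher in dKO than in HET hearts on chow at 43 days.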

How the results depend on the processing

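Of 40 called member differences, 12 kept direction and call under all 24 alternatives tried. Grb10 in dKO hearts on chow at 43 against 21 days kept its own under 23, as it is not tested among the upper 40% by signal. Of 959 recomputed values 948 had the same sign as in the main analysis. The fall of Igf2 in HET hearts on chow at 43 against 21 days was among the 12, at -1.18 to -0.70 (adjusted p from 1.48e-06 to 0.00121), as was Cdkn1c in dKO against HET hearts at 43 days, at -1.71 to -1.26. Scaling moved most of the rest. In dKO hearts on chow at 31 against 21 days, Peg3 turned to -0.085 with median centring and -0.094 with the array set block, and Igf2r to -0.062 with centring. At 43 against 21 days Peg3 turned to -0.26 with quantile normalization, -0.36 with centring, -0.37 with the set block and -0.19 with centring without the smaller array set, Igf2r to -0.18 with centring and -0.030 with the set block, and Ndn to -0.026 with centring. Igf2r in dKO against HET hearts at 43 days turned to -0.057 with centring. The 2 settings without the smaller array set were chosen after seeing the data. With centring and without that set, the rises at 31 days were 0.79 for Mest and 0.38 for Igf2r in HET hearts and 0.78 for Mest in dKO hearts on chow, and none passed. The Cdkn1c genotype change was -0.54 with the Gapdh ratio and did not pass. The cause of these changes was not tested.

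Counts of genes called also moved. At 43 against 21 days in HET hearts on chow 1118 genes were called, against 280 with quantile normalization, 147 with centring, 506 with only the groups compared, 690 with array weights, 195 with the set block and 265 with centring without the smaller set. In dKO hearts on chow 4430 were called, against 2549 with quantile normalization, 2844 with centring, 2397 with the set block and 1902 with centring without the smaller set. In dKO hearts with probucol 428 were called, against 152 with quantile normalization, 163 with centring, 772 with only the groups compared, 1121 with weights, 691 with the Gapdh ratio, 155 with the set block and 213 with centring without the smaller set. The genotype change had 2233, against 1140 without the smaller set and 1114 with centring as well. In HET hearts at 43 days, probucol against chow gave 8, against 31 with quantile normalization, 14 with centring, 5 with the higher floor, 5 with no filter, 0 with only the groups compared, 27 with weights, 5 with the Gapdh ratio and 16 with the set block. Between dKO and HET hearts with probucol at 43 days 1 was called, against 13 with quantile normalization, 3 with centring, 2 with the upper 40%, 4 with only the groups compared, 7 with weights, 3 with the set block, 3 without the smaller set and 4 with centring as well. Leaving out 1 array at a time gave 8 to 49 and 1 to 26 in these last comparisons, the highest without HET probucol 43 days replicate 1. The difference in age effect had 0, against 1 with only the groups compared. Of 36 correlated pairs 3 passed, against 0 with quantile normalization.

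The replicate block left 4 genes for probucol against chow in HET hearts at 43 days. With the block 3 member calls were lost, Mest (0.54, adjusted p = 0.0713) and Igf2r (0.23, adjusted p = 0.124) in dKO against HET hearts at 43 days and Ndn with probucol in dKO hearts at 43 days (-0.38, adjusted p = 0.0711). The numbers do not pair the hearts. Ndn at 31 against 21 days in HET hearts with probucol lost its call on leaving out 5 of the 6 hearts compared.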

Other observations

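By the annotation alone, the probe set given to Mir675 and H19 together cannot be assigned to either. Mir675 lies inside H19 on the chromosome. The values of the probe set are given for the pair over 12422 probe sets fitted. In dKO hearts with probucol it averaged 9.53, 8.98 and 8.60 log2 units at 21, 31 and 43 days, in dKO hearts on chow 9.73, 9.87 and 9.81, in HET hearts with probucol 8.60, 8.77 and 8.51, and in HET hearts on chow 9.41, 9.06 and 8.38. In HET hearts on chow it was lower at 43 than at 21 days by 1.03 ± 0.22 (SE, adjusted p = 8.77e-04, centred -1.31). In dKO hearts on chow the difference was 0.08 as deposited (adjusted p = 0.722) and -0.77 after centring (adjusted p = 9.59e-04). The dKO hearts on chow stood above HET hearts on chow by 1.43 ± 0.20 at 43 days (SE, adjusted p = 8.39e-09, centred 1.08). With probucol, dKO hearts were 1.21 lower than on chow at 43 days (adjusted p = 1.25e-05). The genotype difference in the course from 21 to 43 days was 1.11 as deposited (adjusted p = 0.00248) and 0.55 after centring, where it did not pass (adjusted p = 0.174).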
